A study of Mus musculus with 13 samples.

Results

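Of 300755 open chromatin peaks called in nuclei of mouse kidney, 817 (0.272%) were open in common in the loop of Henle (LOH), the distal convoluted tubule (DCT), the connecting tubule (CNT) and the principal cells of the collecting duct (PC), and less open in proximal tubule, glomerular, vascular, immune and stromal nuclei. They were chosen from their measured accessibility. The deposited matrix gives each nucleus an open call, a value of 1, at every peak in which it had a fragment. Open calls were summed over all 5 samples within each cell cluster named by the authors and scaled to the cluster's total (CPM, open calls per 1000000). A peak was kept when its CPM was at least 8 in LOH, DCT, CNT and PC alike, and when the lowest of these 4 values was at least 2 times the highest value in PT and PT2 (proximal tubule), Podo (podocytes), Endo (endothelium), immune, stroma1 and stroma2. The CPM minimum alone was met by 18003 peaks, of which 4.54% also met the second condition. The difference between these 4 and these 7 clusters is thus the choice itself, and it is given below as a description with no test. Intercalated cells (IC), nephron progenitors (NP) and the clusters named NP_LOH and PT_out had no part in the choice.

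In single nuclei ATAC-seq (snATAC-seq), a transposase cuts and tags accessible DNA in a suspension of nuclei, which are then captured in droplets. It was performed on mouse kidneys, with no treatment named. There were 2 samples at postnatal day 0 (P0), 1 sample at 3 weeks (P21) and 2 samples at 8 weeks (P56). The study grouped P21 and P56 as adult. The labels say P0, while the extraction protocol speaks of mice aged 1 day, and neither strain nor sex of these 5 samples was given in the sources used here. Nothing says whether samples of an age came from separate animals, so the p-values below measure only the spread between these samples, which may be technical, and age cannot be told apart from the protocol, since adult mice were perfused and their kidneys lysed in a larger volume.

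The distal nephron reabsorbs the last part of the filtered salt and sets calcium, magnesium, potassium and acid excretion, while the principal cells of the collecting duct take up sodium and water under aldosterone and vasopressin. The loop of Henle, the distal convoluted tubule and most of the connecting tubule arise from nephron progenitors, and the collecting duct arises from the ureteric bud, so that the clusters compared here join cells of separate embryonic origin in a continuous tube. An open chromatin peak marks DNA that is free of tightly packed nucleosomes and can be reached by transcription factors, at promoters as well as at distant enhancers. Grainyhead-like factors (GRHL) and AP-2 factors (TFAP2) are transcription factors of epithelia that bind such elements.

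The sequences of 6 members are shown, picked from the members that met the rules for naming given with the processing below, not all of which are described further. They held most of the 3 motifs with the highest share among members relative to all peaks, with ties going to GRHL and then to the more open peak. These motifs were a GRHL motif (AACCNGTT), an HNF1 motif (GTTAATNAT) and a TFAP2 motif (GCCNNNGGC). Each is the central 300 bp of its peak on the plus strand of GRCm38/mm10, read from the reference genome of that build, and capitals mark GRHL and TFAP2 motifs on either strand. The windows lie at chr5:116009376-116009675 in an exon of the annotation 5.64 kb from the start of Prkab1, at chr2:143890113-143890412 between genes 25.1 kb from the start of Dstn, at chr3:41195461-41195760 between genes 113 kb from Pgrmc2, at chr14:50973835-50974134 between genes 17.7 kb from Pnp2, at chr16:22572804-22573103 in an exon of Dgkg, and at chr2:109991755-109992054 in an intron of Lgr4.
Prkab1 window: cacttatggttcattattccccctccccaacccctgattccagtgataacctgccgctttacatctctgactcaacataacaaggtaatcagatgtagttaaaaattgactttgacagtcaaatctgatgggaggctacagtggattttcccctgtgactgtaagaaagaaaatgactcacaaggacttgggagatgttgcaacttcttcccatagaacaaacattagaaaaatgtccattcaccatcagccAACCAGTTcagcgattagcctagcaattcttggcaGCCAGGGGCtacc
Dstn window: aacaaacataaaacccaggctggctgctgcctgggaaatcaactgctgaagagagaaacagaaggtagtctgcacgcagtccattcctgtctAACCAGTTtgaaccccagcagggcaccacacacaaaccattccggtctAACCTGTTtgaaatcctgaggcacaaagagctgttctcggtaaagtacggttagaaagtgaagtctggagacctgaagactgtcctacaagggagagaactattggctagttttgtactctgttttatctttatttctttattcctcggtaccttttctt
Pgrmc2 window: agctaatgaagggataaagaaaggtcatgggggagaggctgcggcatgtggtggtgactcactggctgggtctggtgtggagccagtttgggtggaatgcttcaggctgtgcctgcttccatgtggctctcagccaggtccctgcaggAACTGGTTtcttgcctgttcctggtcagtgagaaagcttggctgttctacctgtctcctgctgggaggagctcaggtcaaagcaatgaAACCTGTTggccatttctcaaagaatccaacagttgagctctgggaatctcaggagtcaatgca
Pnp2 window: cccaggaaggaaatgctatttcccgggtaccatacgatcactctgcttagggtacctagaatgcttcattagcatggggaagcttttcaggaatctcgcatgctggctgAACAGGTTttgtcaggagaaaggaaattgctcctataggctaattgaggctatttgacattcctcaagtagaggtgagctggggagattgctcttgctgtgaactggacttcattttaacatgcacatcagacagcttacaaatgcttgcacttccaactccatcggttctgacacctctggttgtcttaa
Dgkg window: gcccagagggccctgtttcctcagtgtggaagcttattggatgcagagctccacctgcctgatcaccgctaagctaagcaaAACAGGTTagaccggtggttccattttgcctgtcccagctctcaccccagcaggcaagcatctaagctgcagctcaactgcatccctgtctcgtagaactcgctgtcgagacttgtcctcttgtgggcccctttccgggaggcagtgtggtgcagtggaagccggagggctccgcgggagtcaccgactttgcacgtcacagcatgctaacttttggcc
Lgr4 window: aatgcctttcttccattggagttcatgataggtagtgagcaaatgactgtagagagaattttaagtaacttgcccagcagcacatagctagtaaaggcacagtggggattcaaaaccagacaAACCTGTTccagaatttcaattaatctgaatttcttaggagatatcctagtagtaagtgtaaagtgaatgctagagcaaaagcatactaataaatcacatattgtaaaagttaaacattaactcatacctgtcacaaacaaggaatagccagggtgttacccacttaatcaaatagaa
The Prkab1 window held 1 GRHL motif and 1 TFAP2 motif, the Dstn and Pgrmc2 windows held 2 GRHL motifs each, and the other windows held 1. All copies lay on the plus strand except 1 of the Pgrmc2 copies and those near Pnp2 and in Dgkg, which lay on the minus strand. TFAP2 reads the same on both strands, and a GRHL match with G at N reads on both. A motif match is a description of the letters and does not show that a factor binds there.

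The 5 samples held 3361 to 7129 nuclei, 28316 in all, with 16980853 to 43794155 open calls each and medians of 3371 to 6737 open peaks per nucleus, the lowest in P56 sample 1. In single clusters the sums were smaller, with 51 and 57 DCT nuclei at P0 and 83 CNT nuclei at P21. Values by sample are given below in CPM, for P0 samples 1 and 2 and then for the adult samples in the order P21, P56 sample 1 and P56 sample 2. A single open call was worth 2.63 CPM in the DCT sum of P0 sample 1 and 0.236 CPM in the LOH sum of the same sample, and values under 3 calls are not told apart from 0. Markers of each cluster (open calls in the gene body and 2 kb upstream) were highest in the cluster they mark for LOH, DCT, CNT and PC, with 3 exceptions: Cldn10 read 180 CPM in LOH and 187 in PT, Aqp3 read 44.2 in PC and 60.1 in IC, and Hsd11b2 read 46.7 in PC and 54.2 in CNT. Cell barcodes found in more than 1 sample numbered 477 (959 nuclei), and 67 of them had the same cluster name in all their samples.

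The levels of the members differed among the 4 clusters and with age. Pooled over samples, which hold unequal parts of each age, the median member reached 17.2 CPM in LOH, 22.0 in DCT, 23.3 in CNT and 17.3 in PC, which corresponds to open calls in 8.55%, 10.8%, 12.4% and 10.6% of the nuclei. The lowest of the 4 values had a median of 12.8 CPM and reached 61.5, and 469 members differed by less than 2-fold among the 4 clusters. By sample, the median member read 12.7 and 13.1 CPM at P0 and 17.9, 23.95 and 21.45 in adult samples in LOH, and 16.4 and 17.25 at P0 and 12.9, 24.5 and 19.0 in adult samples in PC. In the pooled sums DCT held the highest of the 4 values in 296 members, CNT in 291, PC in 140 and LOH in 90. In the 7 clusters that the members had to avoid, the median member read 1.23 to 2.39 CPM, and the highest of the 7 was most often PT2, with 247 members, followed by immune (154) and Podo (150). The ratio of the lowest of the 4 to the highest of the 7 ran from 2.00 to 16.4 with a median of 3.43, and it was at least 4 in 323 members and at least 8 in 60.

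**Figure D1:**
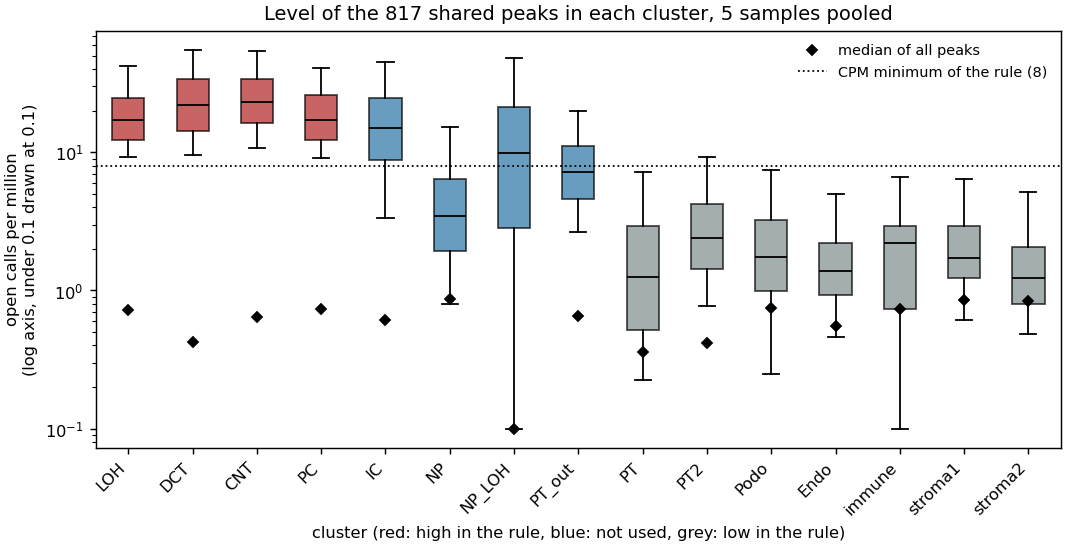
Accessibility of the 817 members in each cell cluster, in CPM pooled over 5 samples (log axis), with boxes for the quartiles, whiskers from the 5% to the 95% point and diamonds for the median of all peaks (red boxes were high in the choice, blue boxes not used and grey boxes low). The medians of LOH, DCT, CNT and PC lie at 17.2 to 23.3, those of the 7 low clusters at 1.23 to 2.39, and IC, which was not used, at 14.9.

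The members shade into other peaks at both limits. The members just inside the ratio limit, with the nearest gene starts Angpt4, Tekt4 and Magi1, had ratios of 2.001 each, and the peaks just outside, near Adpgk, Glis3 and Fgf9, had 1.999, 1.994 and 1.993. At the CPM limit the members near Myo3b and Grin3a had a lowest value of 8.03 CPM, and the excluded peak near Ablim1 had 7.97. The pooled sums hold unequal parts of adult nuclei, which gave 48.6% of the open calls in LOH, 83.2% in DCT, 64.3% in CNT, 34.6% in PC and 83.4% in PT. With the mean of the sample CPM values in place of the pooled sum, 822 peaks met the rule and 640 were shared, which is 78.3% of the members and 77.9% of the alternative. Overlap was smaller within an age. In P0 samples alone 682 peaks met the rule and 385 were shared (47.1% of the members), and in adult samples alone 807 and 527 (64.5%).

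Shares of all open calls that fell in members are given for single samples. The same 5 samples were summed for the choice, so these shares and the counts by sample below are a description and no independent support. In LOH the members took 1.18% and 1.21% of open calls at P0 and 1.83%, 2.29% and 2.14% in the adult samples. In CNT they took 1.60% and 1.56% at P0 and 2.21%, 2.55% and 2.58% in the adult samples. In DCT the shares were 1.82%, 1.77%, 2.11%, 2.16% and 2.23% in the same order. All 3 adult samples thus stood above both P0 samples in these clusters. In PC the groups overlapped, since P21 read 1.40%, below 1.54% and 1.58% at P0, while P56 read 2.14% and 1.85%. In PT, which had to be low, the order was the reverse, with 0.294% and 0.277% at P0 and 0.159% to 0.186% in adult samples. PT2 went the same way, with 0.418% and 0.365% at P0 and 0.215% to 0.294% in adult samples. Other low clusters did not share that order. In stroma1 the shares were 0.147% and 0.163% at P0 and 0.436%, 0.349% and 0.567% in adult samples, and all adult samples also stood above both P0 samples in stroma2 (0.125% and 0.146%, against 0.147% to 0.321%, the lowest of them P56 sample 1, only just above) and immune (0.0965% and 0.135%, against 0.152% to 0.369%). In Endo and Podo the groups overlapped. A higher adult share was thus not limited to the distal clusters in these sums. The rule capped the pooled values of the low clusters, which hold unequal parts of each age. Adult samples gave 83.4% of the open calls in PT, 89.1% in PT2, 13.8% in stroma1, 18.5% in stroma2 and 56.1% in immune. The order of the ages in the low clusters is therefore not independent of the choice and is a description. Within single samples the lowest of the 4 clusters exceeded the highest of the 7 in 710 and 709 members at P0 and in 538, 736 and 704 in the adult samples, and it did so by at least 2-fold in 416, 469, 235, 564 and 387. P21, with the fewest nuclei and open calls, gave the lowest of these counts.

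**Figure D2:**
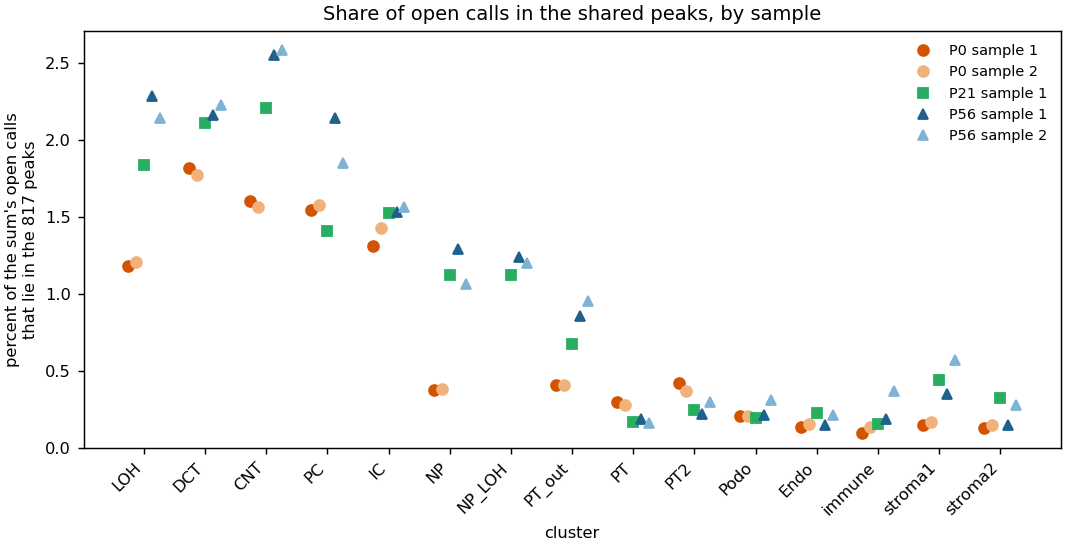
Percent of all open calls of a cluster that fell in the 817 members, for each of the 5 samples, with 1 point a sample, its colour and shape giving age and sample. LOH, DCT and CNT points of adult samples lie above both P0 points, and PC points overlap between the ages.

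Of the 10 members with the highest ratio, 5 lay in introns, 3 between genes, 1 within 5 kb upstream of an annotated start and 1 over the start of Cldn8. The highest ratio, 16.4, was found at chr15:51484181-51484809, 306 kb from the start of Eif3h, with 18.8 CPM in the lowest of the 4 clusters and 1.15 in the highest of the 7. In LOH this peak read 8.02 and 5.95 at P0 and 31.4, 35.2 and 37.2 in adult samples, while in PC it read 28.8 and 24.8 at P0 and 22.1, 38.5 and 26.7 in adult samples. It was lower in both P0 samples than in every adult sample of LOH, and samples of both ages overlapped in PC. The peak at chr2:143889951-143890574, 1 of those printed above with 2 GRHL motifs, had a ratio of 14.4 and read 34.4 and 31.5 at P0 and 27.6, 29.1 and 31.0 in adult samples in PC, a narrow range. An intronic peak of Sorbs2, which encodes an adaptor protein of the actin cytoskeleton, had a ratio of 14.5, and an intronic peak of Gpr39, a zinc-sensing receptor, had 13.5. Further peaks lay in introns of Ssh2, a phosphatase that activates the actin-severing protein cofilin (12.6), Myh14, a non-muscle myosin (12.2), and Hs3st2, which modifies heparan sulfate (12.2). These values belong to the choice and are a description.

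The peak over the start of Cldn8, a claudin of the tight junctions between cells of the aldosterone-sensitive nephron, had a ratio of 12.8 at chr16:88562615-88563937 and a lowest value of 37.3 CPM among the 4 clusters. In CNT it read 56.9 and 40.3 at P0 and 59.8, 55.3 and 61.1 in adult samples. In PC it read 46.3 and 46.9 at P0 and 62.5, 58.3 and 66.1 in adult samples. Both clusters held it open at P0 and in the adult. LOH read 20.8 and 20.8 at P0 and 55.6, 43.7 and 61.4 in adult samples, so that all adult samples stood above both P0 samples, with a log2 difference between P0 and adult of -1.57 ± 0.25, adjusted p = 9.51e-06. Here and below, a log2 difference is P0 minus adult, a negative value is higher in adult, ± gives its standard error, and adjusted p-values come from edgeR's quasi-likelihood test with Benjamini-Hochberg adjustment over all peaks tested in that cluster.

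Clusters that the choice did not use divided the members. In IC the median member read 14.9 CPM, 629 members reached 8 CPM, and 573 were also at least 2-fold above the highest of the 7 low clusters. In NP the median was 3.47 CPM, and 74 members met both limits. The cluster named NP_LOH, of which 99.75% of the open calls came from adult samples, had a median of 9.95 CPM with 392 members past both limits, and PT_out had 7.23 CPM with 195. The 244 members that IC did not share had lower values also in LOH, DCT, CNT and PC, with medians of 15.0, 17.5, 17.2 and 13.8 CPM, against 18.1, 23.9, 26.2 and 19.2 among the 573 others.

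IC and NP were compared directly, with sample as a block, because neither was used to choose the members. Clusters were drawn from open chromatin of the same nuclei, so that p-values between clusters rank peaks and do not test whether the clusters differ. Of 817 members tested, 454 were more open in IC, where 19.1% of all peaks tested were called in that direction, and 38 were more open in NP, where 14.8% were called. Nuclei named NP in adult samples did not carry the opening of Six2, a transcription factor that maintains nephron progenitors, at which NP read 56.8 and 56.6 CPM at P0, no call at P21 and in P56 sample 1 (which allows up to 12.97 and 9.14 CPM) and 2.71 CPM in P56 sample 2. Of the other NP markers, Cited1 read 29.2 and 30.3 at P0 and 4.32 to 9.14 in adult samples and Uncx 47.1 and 45.9 at P0 and 8.65 to 30.5, while Umod, a marker of LOH, read 15.8 and 13.3 at P0 and 38.9 to 70.1. Their part in the result was not tested. Values are therefore also given within each age. At P0 alone 475 members were called higher in IC (background 14.5%) and 28 higher in NP (19.9%). In adult samples alone the counts were 199 (11.8%) and 74 (9.45%). Over all ages, the 38 members higher in NP became 21 without P0 sample 2 and 22 without P56 sample 1. Calls over all peaks in that direction went from 4763 to 2316 and 4183.

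Members high in IC included an element of a proton pump gene. A peak in an intron of Atp6v1b1, the B1 subunit of the vacuolar proton pump, at chr6:83744009-83745116 read 68.3 and 73.4 at P0 and 93.2, 61.6 and 71.3 in adult samples in IC. In P0 nuclei named NP it read 1.25 and 1.57. The difference between IC and NP was 4.62 ± 0.28, adjusted p = 2.18e-14 (IC minus NP). The same peak was open in DCT, at 65.9 and 54.0 at P0 and 72.8, 59.5 and 58.4 in adult samples, where the groups of samples overlapped. A peak 19.2 kb from Rplp1 differed by 4.54 ± 0.25, adjusted p = 7.55e-16. Among members more open in NP, an intronic peak of Sh3bp4 read 5.93 and 5.75 at P0 and 4.32, 15.2 and 13.6 in adult samples in NP. In IC it had no call at P0, which allows up to 10.2 and 6.47 CPM, above the NP values at P0, and 1.98, 2.42 and 0.829 CPM in adult samples, each under 3 calls. Its fitted difference, -3.64 ± 0.54, adjusted p = 1.58e-06, depends on the prior count and is no bound. The peak 74.1 kb from Noct followed with -3.20 ± 0.41, adjusted p = 1.28e-07.

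Beside all peaks, members lay where most peaks lie, with somewhat more of them in exons. Each peak was put in the first class it touches, with exons first, then UTRs, introns and promoters (up to 5 kb before a start), and called distal otherwise. Of the members, 43.2% were intronic (46.7% of all peaks), 29.3% distal (31.6%), 18.7% exonic (14.1%), 5.51% in promoters (4.92%), 2.20% in 5'-UTRs (1.25%) and 1.102% in 3'-UTRs (1.41%). The Wilson 95% interval of the exonic share was 16.2 to 21.6%, counting error only. Of the 18003 peaks at or above 8 CPM in LOH, DCT, CNT and PC, 60.2% were exonic, 16.2% intronic and 10.75% distal. In this order of classes members were thus less often exonic than those peaks. Transcription starts were covered by 104 members, or 12.7% (10.6 to 15.2%), against 7.43% of all peaks and 63.4% of the 18003 peaks at or above 8 CPM in LOH, DCT, CNT and PC, whose median level was 18.7 to 28.0 CPM in every cluster. The median member was 745 bp wide (414 bp over all peaks), lay 14.3 kb from the start of a coding gene (20.6 kb) and had 50.7% GC in its central 300 bp (46.7%). With the promoter class set first, 27.9% of members were promoter and 6.85% exonic, against 21.9% and 5.80% of all peaks. Of the peaks at or above 8 CPM in the 4 clusters, 73.0% were then promoter and 3.33% exonic. This shows how much these shares turn on the order. Members were found on 20 chromosomes, with 4 on X (0.490% of members, 2.01% of all peaks), and 121 lay within 10 kb of another member.

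In the gene body or the 5 kb upstream of a protein-coding gene lay 490 members, and 442 of 21951 such genes (2.01%) held at least 1. Prdm16 and Mecom, related zinc-finger transcription factors, held 7 and 6. The member over the Prdm16 start was the most open of its 7, with 51.7 CPM in LOH, 45.0 in DCT, 47.1 in CNT and 42.9 in PC, while an intronic member 36.6 kb away read 10.1, 10.7, 10.7 and 10.4. Of the 7 Prdm16 members, which share a gene, all were called higher in adult in LOH and 4 in PC, where 66.5% and 19.7% of all members and 24.4% and 12.7% of all peaks tested were called in that direction. Mecom members were less alike. The peak at chr3:30107939-30108948 read 59.6 CPM in LOH and 8.57 in PC, and another at chr3:30004949-30005634 read 13.7 in LOH and 29.9 in PC. The 7 members within the annotated span of Fgfr2 lay nearest to the starts of other genes (Chst15, Oat, Lhpp, Fam53b and Ctbp2), because the annotation gives that gene a span of 2961 kb. Grhl2 held 4, and 14 genes held 3, among them Cdh1, Ephb2, Kcnj1 and Camta1.

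Lists of genes known from the distal nephron and other cell types were then read against these members. Of 51 annotated genes for epithelial junctions, keratins and adhesion, 14 (27.5%) held a member, of 35 genes for sodium, potassium and chloride transport 6 (17.1%), and of 40 distal transcription factors 4 (10.0%). Growth factor and branching genes gave 4 of 44 (or 3 without Fgfr2, named above for its span), calcium, magnesium, water and acid-base genes 2 of 38, and polycystic kidney and cilia genes 0 of 24. Lists of cell types that the members had to avoid gave 1 of 30 for the proximal tubule (Slc34a3, a phosphate transporter), 0 of 16 for podocytes, 0 of 21 for endothelium and immune cells, and 0 of 16 for stroma. Over all coding genes the share was 2.01%, and over the 12459 with a peak at or above 8 CPM in the 4 clusters it was 3.55%. Assigned to the nearest start in place of the gene body, 3.08% of coding genes held a member, and the junction list gave 15 of 51, the transport list 9 of 35, the calcium, magnesium, water and acid-base list 3 of 38 and the growth factor list 4 of 44. The transcription factors moved most, to 15 of 40, with Pax2, Lhx1, Gata3, Emx2, Irx1 and Tfcp2l1 among those added.

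The most open member of the transcription factor list lay over the start of Grhl2, a grainyhead-like factor that drives adhesion genes of epithelia. In CNT it read 56.9 and 52.9 at P0 and 70.7, 71.4 and 69.5 in adult samples. In PC it read 51.5 and 53.6 at P0 and 62.5, 66.4 and 66.8 in adult samples. Its lowest value among the 4 clusters was 44.5 CPM and its ratio 2.22, since the highest of the 7 low clusters read 20.1 CPM. In LOH the peak read 34.9 and 32.4 at P0 and 51.8, 61.6 and 54.1 in adult samples, with all adult samples above both P0 samples (-0.93 ± 0.23, adjusted p = 0.00111). Tfap2b, an AP-2 factor of the distal nephron, had an intronic member that read 16.8 and 17.3 at P0 and 49.3, 32.4 and 56.1 in adult samples in LOH (-1.65 ± 0.27, adjusted p = 1.38e-05) and 13.7 and 11.3 at P0 and 27.2, 28.1 and 43.5 in adult samples in CNT (-1.20 ± 0.35, adjusted p = 0.0136). In PC, where the samples of both ages overlapped, it read 18.7 and 15.8 at P0 and 5.52, 17.5 and 16.2 in adult samples (0.33 ± 0.32, adjusted p = 0.471). The peak over the start of its relative Tfap2a went the other way in LOH, with 20.5 and 13.5 at P0 and 6.4, 7.4 and 6.84 in adult samples (1.08 ± 0.30, adjusted p = 0.00354). In PC, which held it at 32.1 and 38.2 at P0 and 38.6, 46.6 and 39.4 in adult samples, the difference was -0.17 ± 0.20, adjusted p = 0.543. Tead1, a partner of the Hippo pathway effector YAP, was more open in adult nuclei of LOH and PC, with differences of -0.99 ± 0.27 and -0.98 ± 0.27.

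By gene body, though not by nearest start, junction genes were the list with the highest share. The peak over the start of Jup (plakoglobin, which links cadherins to the cytoskeleton) read 44.4 and 39.0 at P0 and 49.0, 57.3 and 61.1 in adult samples in CNT and 42.1 and 41.8 at P0 and 29.7, 30.8 and 35.1 in adult samples in DCT. The one over Cldn7 read 30.6 and 30.8 at P0 and 42.3, 52.5 and 44.3 in adult samples in PC, with both P0 samples below all adult samples (-0.53 ± 0.19, adjusted p = 0.0403). In PT2, a low cluster, it read 24.2 and 21.1 at P0, close to 24.3 and 25.8 in LOH. An intronic peak of Tjp3 (the tight junction scaffold ZO-3) differed in both LOH (-0.71 ± 0.25) and PC (-0.78 ± 0.22, adjusted p = 0.00979). Cdh1 encodes E-cadherin, and its most open member, 15.8 kb from a start, read 13.2 and 14.1 at P0 and 25.6, 33.5 and 33.1 in adult samples in LOH (-1.39 ± 0.25, adjusted p = 4.55e-05) and 30.6 and 34.9 at P0 and 38.6, 40.8 and 42.2 in adult samples in PC (-0.26 ± 0.20, adjusted p = 0.343). LOH thus showed low values at P0 and high ones in adult, and the difference in PC did not pass the test. PT read 15.1 and 14.95 at P0, above LOH, and 2.96 to 3.81 in adult samples, so the pattern of the choice did not hold at P0 for this peak. Peaks in Ocln (occludin) and in Mal and Mal2, which carry cargo to the apical membrane, were likewise higher in adult LOH, with log2 differences of -1.16 ± 0.24, -0.68 ± 0.26 and -0.63 ± 0.25. The Jup peak was called higher in adult LOH as well (-0.86 ± 0.23), but its direction turned when nuclei were thinned to 1000 open peaks each (0.36).

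Transport genes gave members over the starts of channels. Kcnj1 encodes the potassium channel ROMK of the apical membrane, and the peak over its start, in the 5'-UTR, had a ratio of 7.80. It read 26.9 and 26.99 at P0 and 59.5, 73.3 and 70.5 in adult samples in LOH and 17.1 and 17.6 at P0 and 46.2, 45.2 and 52.0 in adult samples in CNT, so that every adult sample stood above both P0 samples in each (-1.54 ± 0.23, adjusted p = 5.74e-06 in LOH). Scnn1a encodes the alpha subunit of the epithelial sodium channel, and its start read 14.9 and 18.7 at P0 and 49.3, 64.1 and 64.1 in adult samples in LOH (-2.03 ± 0.25, adjusted p = 2.88e-07) and 17.2 and 17.2 at P0 and 22.1, 59.5 and 50.0 in adult samples in PC (-1.38 ± 0.25, adjusted p = 2.28e-04). In DCT, where samples of both ages overlapped, the same peak read 44.8 and 56.5 at P0 and 75.5, 44.1 and 60.7 in adult samples (0.06 ± 0.25, adjusted p = 0.966). Nr3c2, the mineralocorticoid receptor, had an intronic member at 15.9 and 21.4 at P0 and 49.0, 50.3 and 42.9 in adult samples in CNT (-1.05 ± 0.29, adjusted p = 0.00982). A member of Kcnj10, the basolateral potassium channel Kir4.1, was the most open of the list, at 63.2 and 59.0 at P0 and 116, 76.0 and 94.2 in adult samples in DCT. In PT2 it read 35.1 and 35.2 at P0, close to 42.6 and 38.25 in PC. Casr, the calcium-sensing receptor, had an intronic member called higher in adult LOH, CNT and PC (-1.53 ± 0.28, -0.90 ± 0.27 and -1.40 ± 0.32), in which P21 read 9.20 CPM in PC, below both P0 samples, while P56 read 37.3 and 35.2.

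Among growth factor and branching genes, an intronic peak of Ephb2, a receptor of ephrins, had the widest spread between ages. It read 30.7 and 29.6 at P0 and 100.4, 105 and 117 in adult samples in LOH (-2.04 ± 0.24, adjusted p = 1.24e-07). In PC the same element read 22.8 and 26.2 at P0 and 33.1, 53.6 and 52.8 in adult samples (-0.92 ± 0.21, adjusted p = 0.00185). A member in Bmp7, a growth factor of the nephron and duct, read 10.2 and 23.9 at P0 and 57.1, 45.2 and 49.6 in adult samples in CNT (-1.27 ± 0.31, adjusted p = 0.00441) and 19.8 and 17.2 at P0 and 18.4, 54.8 and 46.4 in adult samples in PC (-1.15 ± 0.25, adjusted p = 0.00152), where P21 lay between the P0 samples. The Lgr4 peak printed above, in an intron of a receptor for R-spondins, was less open, at 8.96 and 7.88 at P0 and 9.2, 18.6 and 20.4 in adult samples in PC (-0.98 ± 0.34, adjusted p = 0.0328).

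**Figure D3:**
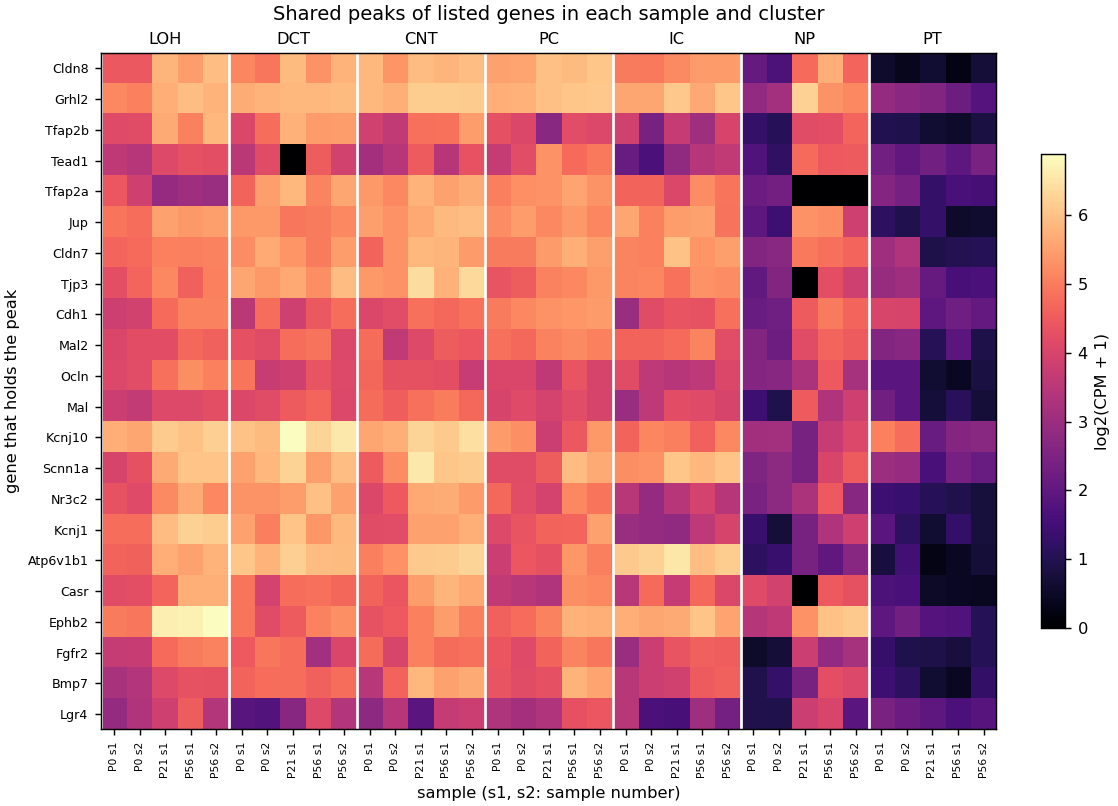
Heat map of named members of the gene lists (rows, by the gene that holds the peak) in each of the 5 samples of LOH, DCT, CNT, PC, IC, NP and PT (columns), coloured by log2(CPM + 1). The adult columns of LOH are brighter than both P0 columns for Kcnj1, Scnn1a, Nr3c2, Cdh1, Ephb2 and Bmp7 and darker for Tfap2a.

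Sequence set the members apart in a few motifs. Of 20 motifs searched on both strands of the central 300 bp, the GRHL motif AACCNGTT was held by 78 members, or 9.55% (7.72 to 11.8%, Wilson 95%), against 2.44% of all peaks and 2.24% of the 18003 peaks open in the 4 clusters, a ratio of 3.91 to all peaks. Over whole peaks the shares were 17.5% and 3.95%, and away from start sites 10.1% and 2.49%. The HNF1 motif GTTAATNAT was held by 24 members (2.94%, against 1.48%), and the TFAP2 motif GCCNNNGGC by 139 (17.0%, against 8.97%). The last was less frequent than in peaks open in the 4 clusters, of which 25.4% held it, so its direction depends on the set compared. Motifs held at about the share of all peaks included ELF and EHF (15.2% and 15.1%), GATA (4.16% and 3.97%) and AP-1 (10.2% and 10.5%). No member held CAAAGTCCA, the HNF4 motif of proximal tubule enhancers (0 of 817, Wilson upper bound 0.468%), against 0.803% of all peaks and 0.361% of the peaks open in the 4 clusters. The last share lies under the upper bound, so a share below that of this set was not shown. Over whole peaks 0.245% of members and 1.21% of all peaks held the HNF4 motif. Members with a GRHL motif read 15.6, 20.9, 22.3 and 19.2 CPM at the median in LOH, DCT, CNT and PC, and those without it 17.3, 22.2, 23.3 and 17.1.

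**Figure D4:**
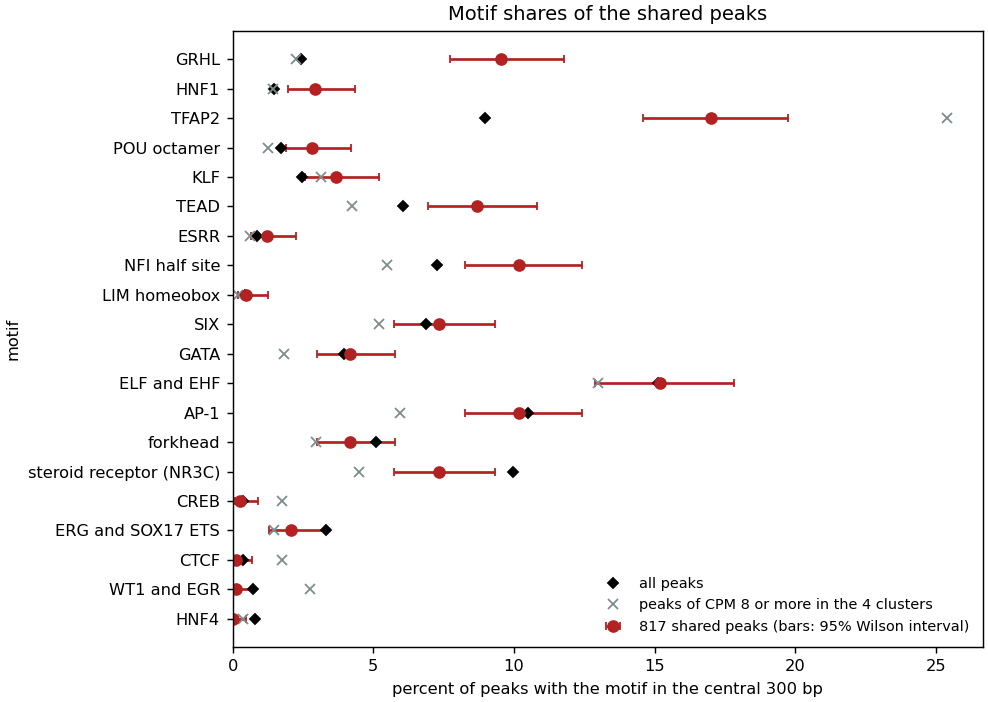
Percent of peaks that hold each of 20 motifs in the central 300 bp, for the 817 members (circles with Wilson 95% intervals), all peaks (diamonds) and peaks of at least 8 CPM in LOH, DCT, CNT and PC (crosses). GRHL stands at 9.55% of members against 2.44% of all peaks, and TFAP2 at 17.0%, between 8.97% of all peaks and 25.4% of the peaks open in the 4 clusters.

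Postnatal age was compared within each cluster, between 2 P0 and 3 adult samples, a contrast the choice did not make, although it summed the same samples. In LOH, 543 members (66.5%) were more open in adult, where 24.4% of all 89743 peaks tested and 39.9% of the peaks open in the 4 clusters were called in that direction. More open at P0 were 59 (7.22%), against 29.9% of all peaks and 7.75% of those open in the 4 clusters. The median log2 difference of all 817 members, fitted without a filter on low sums, was -0.96, and that of all peaks was 0.61. With the filter, which all 817 members passed, it was -1.02 over members and 0.11 over all peaks tested. Without P0 sample 1 the 59 members higher at P0 became 38, and the 543 became 376. Calls over all peaks fell as well in that fit. LOH nuclei were deeper at P0, with medians of 6567 and 7430 open peaks against 2496 to 4477 in adult samples. With nuclei thinned to 1000 open peaks, 202 of 654 members tested were higher in adult and 35 at P0, against 2442 and 2384 of the 19135 peaks tested. The members were picked from sums of both ages, and the counts move with that choice. Of 682 peaks that meet the rule in P0 samples alone, 283 were higher in adult LOH and 163 at P0, and of 807 that meet it in adult samples alone the counts were 637 and 4.

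Several of the LOH members with the largest differences are described here. The peak over the start of Cldn9, a claudin with high levels in the neonatal kidney, read 43.4 and 39.1 at P0 and 4.48, 3.17 and 2.51 in adult samples in LOH (3.50 ± 0.30, adjusted p = 1.24e-09). In PC it read 42.6 and 41.2 at P0 and 3.68, 3.5 and 2.11 in adult samples (3.92 ± 0.35, adjusted p = 2.16e-07). CNT went the same way, with 44.4 and 42.8 CPM at P0, 2.72 CPM from 1 call at P21, no call in P56 sample 1 (which allows up to 3.02 CPM) and 1.81 CPM in P56 sample 2 (5.18 ± 0.51, adjusted p = 1.30e-06). The peak was thus low in adult nuclei of all 3 clusters. The intergenic peak at chr9:46421781-46422503 read 21.7 and 22.1 at P0 and 3.68, 2.33 and 0.704 in adult samples in PC, where the difference was 3.63 ± 0.48, adjusted p = 1.15e-05, and it was higher at P0 in LOH too (4.01 ± 0.45, adjusted p = 8.55e-08). No adult library held more than 3 calls at Cldn9 in CNT and PC or at the intergenic peak in PC, so these fitted differences depend on the prior count and are no bound on the size. In the opposite direction, a peak in an exon of Armcx4 on X read 1.89 and 1.99 at P0 and 28.1, 34.2 and 28.8 in adult samples in LOH (-4.14 ± 0.33, adjusted p = 4.95e-10) and 2.24 and 0.375 at P0 (6 calls and 1 call) and 12.9, 25.6 and 22.5 in adult samples in PC (-3.89 ± 0.50, adjusted p = 8.64e-06). The intergenic peak 16.4 kb from Aak1, a kinase of clathrin-mediated endocytosis, read 2.36 and 1.39 at P0 and 19.2, 31.4 and 32.2 in adult samples in LOH and was called higher in adult in all 4 clusters, by -4.12 ± 0.36 in LOH, -1.94 ± 0.53 in DCT, -1.19 ± 0.36 in CNT and -0.88 ± 0.32 in PC.

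In CNT, 783 members passed the filter on low sums, and 181 of the 817 (22.2%) were more open in adult and 27 (3.30%) at P0, against 10.4% and 12.2% of the 24739 peaks tested and 6.42% and 6.87% of those open in the 4 clusters. DESeq2 gave 78 and 7 members in the same order (1080 and 1549 of all peaks), and equal numbers of nuclei 96 and 27 (1212 and 1188). Of the 682 peaks that meet the rule in P0 samples alone, 84 were higher in adult CNT and 82 at P0, so the balance depends on the choice. With nuclei thinned to 1000 open peaks 25 members were tested and 0 called (5 at an unadjusted p under 0.05, edgeR). Of all 1581 peaks tested after thinning 0 were called too. The median over all 817, without the filter, was -0.76, and over all peaks 0.52. With the filter it was -0.37 over the members tested and 0.0098 over all peaks tested. The peak 2.31 kb from a start of Shroom3, which shapes epithelial cells through apical actin, read 2.28 and 1.26 at P0 and 24.5, 36.2 and 39.9 in adult samples in CNT (-3.95 ± 0.54, adjusted p = 2.85e-05). The same element read 4.48 and 6 at P0 and 27.6, 30.3 and 31.7 in adult samples in PC (-2.45 ± 0.32, adjusted p = 9.71e-06), and the groups did not overlap in either. The CNT difference rests on 2 and 1 calls at P0, depends on the prior count and is no bound. A peak 10.3 kb from Kbtbd12 read 2.28 and 2.52 at P0, from 2 calls each and so not told apart from 0, and 24.5, 45.2 and 52.6 in adult samples in CNT. A peak in 4930550C14Rik read 4.55 and 11.3 at P0 and 65.3, 73.4 and 84.1 in adult samples. Higher at P0 was a promoter peak of Slit1, a secreted guidance cue, at 34.2 and 39.0 at P0 and 5.44, 10.1 and 2.42 in adult samples in CNT (2.99 ± 0.44, adjusted p = 6.46e-05). In LOH it read 43.7 and 37.5 at P0 and 24.9, 44.7 and 31.7 in adult samples, with overlapping samples and a difference of 0.05 ± 0.24. CNT counts depended on single libraries, and calls over all peaks moved in the same directions. Those higher at P0 went from 3011 to 2813 without P21, 1995 without P56 sample 2 and 4196 without P56 sample 1. The 27 members higher at P0 became 2 without P0 sample 1, 12 without P0 sample 2, 14 without P21, 16 without P56 sample 2 and 64 without P56 sample 1, and the 181 became 67 and 97 without P0 samples 1 and 2.

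Of the 4 clusters DCT had the fewest nuclei at P0, and 417 members passed the filter. Of the 817, 20 (2.45%) were more open in adult and 4 (0.490%) at P0. Over the 417 tested these are 4.80% and 0.959%, against 2.6% and 1.13% of 12247 peaks tested and 1.39% and 1.08% of the tested peaks open in the 4 clusters, and the members under the filter have no test. The call counts depended on the settings. DESeq2 gave 4 members in adult and 1 at P0. Thinning left 4 members tested and 0 called (1 at an unadjusted p under 0.05, edgeR), and 0 of all 645 peaks tested were called. The peaks that meet the rule in P0 samples alone gave 5 in adult and 8 at P0, the reverse balance. The median over all 817, without the filter, was -0.50, and over all peaks -0.32. With the filter it was -0.057 over the members tested and 0.0064 over all peaks tested. The peak 9.42 kb from Muc3 read 5.27 and 12.3 at P0 (2 and 5 calls) and 48.5, 47.4 and 86.6 in adult samples in DCT (-2.66 ± 0.44, adjusted p = 0.00142), and the same direction held in CNT (-2.75 ± 0.32), LOH (-2.46 ± 0.30) and PC (-1.28 ± 0.20). In PC it read 19.8 and 33.8 at P0 and 71.7, 61.8 and 71.1 in adult samples, and in each of the 4 clusters all adult samples stood above both P0 samples. At chr14:107033837-107034493 the DCT values were 10.5 and 4.91 at P0 (4 and 2 calls) and 62.0, 47.4 and 41.6 in adult samples (-2.35 ± 0.47, adjusted p = 0.00538). The Pgrmc2 peak printed above was higher at P0, with 44.8 and 46.7 at P0 and 13.5, 20.9 and 21.8 in adult samples (1.41 ± 0.34, adjusted p = 0.0198), whereas in LOH it was higher in adult (-0.94 ± 0.26). Without P0 sample 1 the counts were 6 and 0, without P0 sample 2 they were 2 and 0, and without P56 sample 2 they were 7 and 3. Without P56 sample 1 they were 27 and 19, and without P21 25 and 9. Calls over all peaks, 319 and 139 with every sample, moved in the same directions. They were 188 and 80 without P56 sample 2, 466 and 466 without P56 sample 1, and 487 and 317 without P21.

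PC showed both directions. More open in adult were 161 members (19.7%) and at P0 101 (12.4%), against 12.7% and 16.8% of 40576 peaks tested and 13.3% and 7.92% of those open in the 4 clusters. These calls depended on the settings. DESeq2 gave 107 in adult and 55 at P0 (2791 and 3631 of all peaks), and equal numbers of nuclei gave 53 and 51 (1075 and 1502). Without a filter on low sums edgeR called 0 members in either direction (240 at an unadjusted p under 0.05). That fit called 0 of all 278469 peaks as well. With nuclei thinned to 1000 open peaks it called 4 in adult and 1 at P0 of 173 tested, against 38 and 41 of 6562 peaks tested. Of the peaks that meet the rule in P0 samples alone, 64 were higher in adult PC and 176 at P0, the reverse balance. The median over all 817, without the filter, was -0.05, and over all peaks 0.42. With the filter it was -0.16 over members and 0.011 over all peaks tested. The promoter peak of Vapb, a protein of contacts between the endoplasmic reticulum and other membranes, read 16.8 and 17.6 CPM at P0 in PC, with no call at P21 and in P56 sample 1 (which allows up to 5.52 and 3.50 CPM) and 1.41 CPM, from 2 calls, in P56 sample 2 (4.53 ± 0.62, adjusted p = 1.48e-05). With no adult library at 3 calls, that fitted difference too depends on the prior count and is no bound. In LOH it read 19.6 and 18.7 at P0 and 4.48, 5.64 and 5.7 in adult samples (1.60 ± 0.30, adjusted p = 6.67e-05), so the element was lower in adult in both clusters. An intronic peak of Acoxl was higher at P0 in PC (3.66 ± 0.49, adjusted p = 1.16e-05) and not called in LOH (0.53 ± 0.25, adjusted p = 0.0749). Higher in adult were an intronic peak of Hk1, a hexokinase, at 4.48 and 3.00 at P0 and 9.2, 32.6 and 26.7 in adult samples (-2.63 ± 0.40, adjusted p = 4.60e-05), and a peak 94.3 kb from Fam161a at 2.61 and 3.38 at P0 and 7.36, 25.6 and 37.3 in adult samples (-3.07 ± 0.44, adjusted p = 2.36e-05). In both, P21 lay between P0 and P56. The counts fell to 47 and 36 without P0 sample 1 and to 50 and 35 without P0 sample 2, and the 101 members higher at P0 became 56 without P56 sample 2. Calls over all peaks fell as well, for those higher at P0 from 6801 to 4367 without P56 sample 2. Without P21, 211 members were higher in adult and 71 at P0, and the filtered median over members was -0.32. Calls over all peaks were then 6157 and 7737, against 5140 and 6801 with every sample. Of the 573 members shared with IC, 6.63% were higher at P0 in PC and 72.6% higher in adult in LOH, against 25.8% and 52.1% of the 244 others. The pooled IC sums that made this split held 77.0% of their open calls from adult samples. It was thus not independent of age and is a description.

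Across the 4 clusters, 556 members (68.1%) were called more open in adult in at least 1, against 25.6% of the 93642 peaks tested in any of them and 41.9% of the peaks open in the 4 clusters. In at least 2 clusters there were 244 (29.9%, against 5.08% and 14.2%), in at least 3 there were 92 (11.3%, against 1.15% and 3.63%), and in all 4 there were 13 (1.59%, against 0.135% and 0.528%). More open at P0 in at least 1 were 133 (16.3%, against 32.2% and 14.3%) and in at least 2 45 (5.51%, against 5.61% and 5.95%), shares near those of the peaks open in the 4 clusters. No call was made in any cluster for 156 (19.1%, against 42.6% and 44.6%). In 22 members (2.69%, against 0.237% and 0.544%) adult was higher in LOH and P0 higher in PC, and the reverse pair of calls was found in 0 (0.124% and 0.0722% of the other sets). The clusters differ in nuclei and depth, so the number of calls in one cannot be set against that in another without a test of the difference itself.

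**Figure D5:**
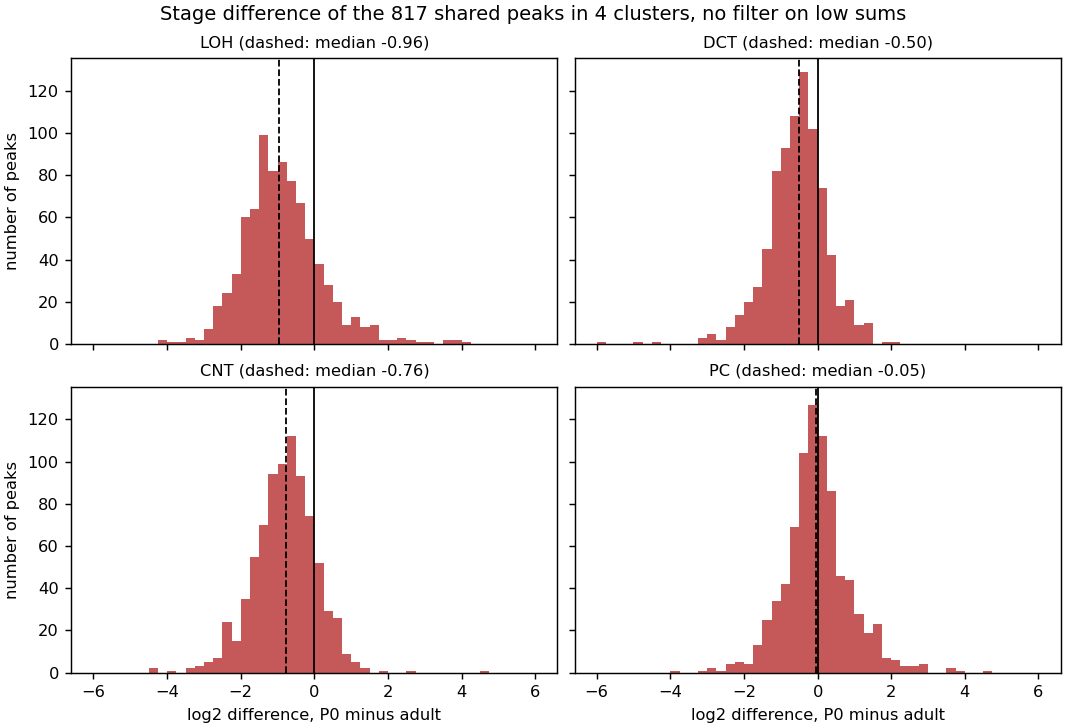
Histograms of the log2 difference between P0 and adult of the 817 members, fitted without a filter on low sums, in LOH, DCT, CNT and PC (negative values are higher in adult, the dashed line is the median, and values past 6 stand at 6). The medians are -0.96, -0.50, -0.76 and -0.05.

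That test was made in 1 fit of the 4 clusters with sample as a block. The difference between P0 and adult was lower in LOH than in PC, which means relatively more open in adult LOH, in 351 members (43.0%, against 9.19% of 51776 peaks tested and 14.4% of those open in the 4 clusters), and higher in 39 (4.77%, against 7.42% and 3.70%). Against DCT it was lower in LOH in 108 (1.87% of all peaks and 2.60% of those open in the 4 clusters) and higher in 25 (1.7% and 1.43%), and against CNT lower in 103 (2.94% and 3.81%) and higher in 50 (2.82% and 2.15%). Scaling by DESeq2 size factors moved the median of all peaks from -0.05 to 0.07 for LOH against PC and that of the members from -0.64 to -0.53. Cldn4, a claudin through which the collecting duct passes chloride, is the plainest case. Its start read 18.2 and 19.4 at P0 and 1.92, 3.52 and 1.82 in adult samples in LOH (2.75 ± 0.35, adjusted p = 4.85e-07). In PC it read 31.0 and 37.5 at P0 and 35.0, 39.6 and 33.1 in adult samples (0.01 ± 0.20, adjusted p = 0.965), with a difference between the clusters of 2.91 ± 0.35, adjusted p = 4.10e-14. The Fam189a2 peak stood at the other end, with 3.78 and 1.39 at P0 and 19.8, 39.5 and 27.6 in adult samples in LOH. In PC it went the other way, with 13.4 and 15.4 at P0, no call at P21 (which allows up to 5.52 CPM) and 12.8 and 5.63 at P56 (1.16 ± 0.44, adjusted p = 0.0461), and the difference against PC was -4.71 ± 0.43, adjusted p = 6.74e-24. For Scnn1a the difference against PC was -0.50 ± 0.22, adjusted p = 0.138, so that a stage effect apart from that of PC was not shown. Counts of calls on the stage difference, over members and over all peaks alike, fell when a P0 sample was left out. Without P0 sample 1 the 351 became 231 and the 39 became 19, and without P0 sample 2 212 and 25. Against DCT, leaving out P0 sample 1 gave 17 and 10 members, P0 sample 2 gave 15 and 18, and P56 sample 2 gave 71 and 16, and against CNT the same samples gave 13 and 15, 27 and 25, and 59 and 24.

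LOH and PC were also set side by side over all samples, with sample as a block. The rule used the pooled values of both, and PC held the lowest of the 4 values in 337 members and LOH in 280, so the counts below are a description of the members and no test. Past the threshold on the side of LOH were 95 members (11.6%, against 13.8% of 32160 peaks tested and 9.97% of those open in the 4 clusters) and on the side of PC 173 (21.2%, against 14.0% and 6.99%). The balance turned with age and with the filter. At P0 alone 55 members were higher in LOH (14.9%) and 374 in PC (17.4%), and in adult samples alone the counts were 254 (23.6%) and 155 (18.5%). Without a filter on low sums the split was 162 higher in LOH and 49 in PC. Leaving out P56 sample 2 left 58 members higher in LOH, and 3452 of all peaks, against 4451 with every sample. The Mecom peak named above was highest in LOH relative to PC, with 25.7 and 29.6 at P0 and 80.0, 84.5 and 104 in adult samples in LOH and 12.7 and 5.62 at P0 and 3.68, 5.83 and 9.85 in adult samples in PC (a log2 difference of 2.51 ± 0.26, LOH minus PC). A promoter peak of Actrt2 read 38.0 and 38.3 at P0 and 88.9, 89.1 and 85.3 in adult samples in LOH and 16.4 and 22.1 at P0 and 9.2, 18.6 and 12.7 in adult samples in PC (1.71 ± 0.19). In both peaks every LOH sample stood above every PC sample. At the other side the Prkab1 peak, printed above with GRHL and TFAP2 motifs, read 15.6 and 12.1 at P0 and 7.04, 13.4 and 7.07 in adult samples in LOH and 37.7 and 42.4 at P0 and 33.1, 47.8 and 42.9 in adult samples in PC (-1.88 ± 0.17). A peak 7.11 kb from Gadd45b, a stress-induced gene, differed by -1.97 ± 0.30, and an intronic peak of Slc25a47 by -1.76 ± 0.22.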

How the data were processed

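Single nuclei ATAC-seq of 5 mouse kidney samples was used. The authors aligned reads to mm10 with Cell Ranger ATAC 1.1.0, kept barcodes by fragment number, promoter ratio and mitochondrial reads, clustered nuclei on 5-kb bins with SnapATAC and Harmony, and called peaks with MACS2 per cell type before merging them. A doublet caller is not given in the sources used here and none was run, and whether nuclei of mixed origin remain in the sums was not tested. The deposited counts are a binarized matrix, in which 1 marks a nucleus with a fragment in a peak. The deposited peak list gave positions and widths, treated here as a score column. Sample and cluster names came from the deposited table of nuclei. Deposited single-cell RNA files without expression values were not used.

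Open calls were summed per sample and cluster (sums of at least 20 nuclei) and tested with edgeR 4.0.16 (quasi-likelihood, TMM, filterByExpr with a minimum count of 10, Benjamini-Hochberg threshold 0.05) in R 4.3.3. The block was sample for comparisons between clusters. DESeq2 1.42.0 served as an alternative, and the fits were tested on simulated data. Annotation was GENCODE M21 on GRCm38, and motifs were searched in the central 300 bp. Named peaks were the 10 of highest ratio, the threshold neighbours, the most open member of each listed gene (at most 8 a list) and the peaks of largest difference per test and direction. The members and gene lists were chosen with earlier results of these data known. Intervals and limits for counts of 0 (3 open calls) cover counting error only. Sums held 40 to 1042 nuclei in LOH, DCT, CNT, PC and IC. The values of 2 members of the gene lists are not reported here.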

Additional observations from a re-analysis of the deposited data

Results flagged for a closer look

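The effect of age differed between clusters in a direct test of that difference, by edgeR with Benjamini-Hochberg adjustment in a model added after the data were seen. Relative to PC, the P0 to adult difference was lower in LOH in 351 members (9.19% of all peaks tested were called in that direction) and higher in 39 (7.42%). Relative to DCT it was lower in 108 (1.87%) and higher in 25 (1.7%), and relative to CNT lower in 103 (2.94%) and higher in 50 (2.82%). The balance turned to 15 lower and 18 higher against DCT without P0 sample 2, and to 13 lower and 15 higher against CNT without P0 sample 1. The balance over all peaks turned the same way in both fits. In podocyte nuclei of P56 sample 2, 0.310% of open calls fell in members, and this sample lay far from the other 4, with a gap of 0.881 of the whole range (critical value 0.71 for 5 samples). That sum held 39 nuclei, 14 groups of 5 samples were examined in this way, and chance flags about 1 group in 20. The rule held the pooled Podo value low, and this sample gave 242481 of the 4033534 open calls in that pool. The comparison is thus not independent of the choice and is a description.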

How the results depend on the processing

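The number of members was 482 with a ratio of at least 3, 1655 with a CPM of at least 4, and 728 to 865 with each sample left out. With nuclei thinned to 1000 open peaks, stage calls (higher at P0, then higher in adult) were 35 and 202 in LOH, 1 and 4 in PC, 0 and 0 in DCT and 0 and 0 in CNT, where edgeR gave 1 and 5 members at an unadjusted p under 0.05. In DCT and CNT 0 of all 645 and 1581 peaks tested were called after thinning. DESeq2 gave 1 and 4 in DCT, 7 and 78 in CNT and 55 and 107 in PC. Without a filter on low sums the calls were 1 and 41 in DCT, 3 at P0 in CNT, and 0 and 0 in PC (240 members at an unadjusted p under 0.05). In PC that fit called 0 of all 278469 peaks. With equal numbers of nuclei, an alternative chosen after seeing the data, they were 1 and 4 in DCT, 96 in adult CNT, and 51 and 53 in PC. Peaks that meet the rule in P0 samples alone gave 163 and 283 in LOH, 8 and 5 in DCT, 82 and 84 in CNT and 176 and 64 in PC, and those that meet it in adult samples alone gave 4 at P0 in LOH, 1 in DCT, 6 in CNT and 20 in PC, with 276 higher in adult PC (also chosen after seeing the data). The cause of these shifts was not tested, apart from the smaller number of peaks tested after thinning.

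Leaving out each sample gave 38 to 70 members higher at P0 and 376 to 565 higher in adult in LOH, 0 to 19 and 2 to 27 in DCT, 2 to 64 and 67 to 244 in CNT, and 35 to 115 and 47 to 211 in PC. LOH against PC gave 58 to 115 and 129 to 171, and IC against NP 324 to 476 and 21 to 38. The number of calls over all peaks also changed with the sample left out. The stage difference of LOH was lower in 212 to 342 and higher in 19 to 33 against PC, 15 to 104 and 10 to 28 against DCT, and 13 to 97 and 15 to 48 against CNT. DESeq2 gave 222 lower against PC, 64 lower against DCT, and 44 lower and 31 higher against CNT. LOH against PC gave 162 and 49 without a filter, 55 and 374 at P0 alone, and 254 higher in LOH in adult samples alone, and IC against NP gave 199 and 74 in adult samples alone.

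With the replicate number as a block, stage calls were 58 and 545 in LOH, 5 and 21 in DCT, 34 and 207 in CNT and 91 and 145 in PC. Deviations of same-numbered samples correlated at 0.0333 to 0.0999 over peaks. The deposited names call the samples batches, numbered anew within each age, while the paper numbers its batches through all ages. Whether same-numbered samples of different ages were processed together is not stated. Without the sample block, LOH against PC gave 38 and 63, and 18 members were higher in NP than in IC.

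With the promoter class first, 6.85% of members were exonic, 0.245% in 5'-UTRs, 34.9% intronic and 27.9% in promoters, and a promoter of 2 kb held 2.33%. The TFAP2 share was 0.670 times that of peaks open in the 4 clusters. By nearest start, 15 transcription factors held a member. The Jup peak turned to 0.36 in LOH after thinning. Among the tests of named peaks, 23 calls were lost and 23 outcomes stayed after thinning. Without a filter on low sums 34 were lost and 91 stayed, and with DESeq2 18 were lost and 107 stayed. Thinning left 654 members tested in LOH, 173 in PC, 25 in CNT and 4 in DCT.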
